A study of Xenopus laevis with 2 samples.

Results

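Animal caps are the roof of the *Xenopus laevis* blastula, a sheet of prospective ectoderm that becomes epidermis when it is left alone in saline. The transcripts of such caps, in which an injected EBF3 protein was left inactive, were read from the Cy5 channel of 2 two-colour Agilent *Xenopus* arrays. A probe was counted as detected where it was not a control, was not flagged non-uniform and stood well above background on both arrays in that channel, by the flags of the scanner software. This held for 11400 of the 21495 gene probes. Detected probes were ranked by the mean of their log2 processed signals on the 2 arrays.

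Both Cy5 channels held untreated hGR-Xebf3 caps, from embryos injected at the one-cell stage with 1 ng of mRNA for EBF3 joined to the part of the human glucocorticoid receptor (hGR) that binds the hormone. The fusion protein is held inactive until dexamethasone (DEX) is added, so these caps carried the injected message but received no hormone. The Cy3 channel of array 1 held the same kind of caps after DEX (active EBF3), and that of array 2 held DEX-treated caps injected with 0.4 ng of mRNA for hGR alone. No Noggin, the secreted BMP antagonist used elsewhere to neuralize caps, is listed for these samples. All caps were dissected at stage 9 and kept for 4.5 hours, with 30 µM DEX in the treated groups. There was 1 biological replicate and no dye swap, and the labels do not say whether the 2 Cy5 channels came from 1 RNA extract or 2. The pair of Cy5 values of a probe therefore holds at least the error of hybridization and scanning. Whether it also holds error of labelling or between extracts is not known, and each value was dye-normalized with its own Cy3 partner. Their difference can be no more than a lower bound on the total error between biological replicates, and no p-value could be computed. Each array was a slide of its own, and slide and Cy3 partner cannot be told apart.

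Prospective ectoderm at these stages lies between a maternal and a zygotic programme. Eggs are stocked with messages for the rapid cleavage divisions, and many of them persist after the embryo begins its own transcription in the blastula. Signalling by bone morphogenetic proteins (BMPs) then directs ectoderm towards epidermis through transcription factors of the Ventx, Gata, Dlx, Foxi and Tfap2 families, and where BMP signalling is blocked the same cells take a neural fate under Sox and Zic factors. Keratins and cadherins build the epithelium itself.

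Of the 21495 gene probes, 118 were flagged non-uniform in Cy5 on an array, which left 21377. Of these, 53.3% were detected on both arrays, 1030 probes were well above background on 1 array only, and 8947 probes (41.9%) were well above background on neither and are called not detected here. Processed signals of the detected probes ran between 210 and 819540 on array 1, with a median of 1605, and between 139 and 566563 on array 2, with a median of 1340. The detected probes were divided by rank into a bright class of 2850, with a mean log2 signal of at least 12.6, a dim class of 2850 at or under 8.94, and a middle class of the 5700 between them. As a share of all uniform probes, the bright class was 13.3%. The brightest 100 probes held 25.9% and 25.8% of the summed signal of detected probes on arrays 1 and 2.

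The 2 Cy5 channels gave nearly the same ranking. Across the 11400 detected probes Pearson's r was 0.997 and Spearman's rho 0.995, as descriptions of probes that share the labelling and the probe sequence. Array 1 was brighter by a median of 0.24 on the log2 scale, and the SD of the difference was 0.167. The SD was 0.091 in the bright class, 0.156 in the middle class and 0.225 in the dim class, so dim probes were measured less precisely. Of all detected probes 95.1% ranked within the same 25% of probes on both arrays and 96.4% were within 1.5-fold of each other. A small set of 36 probes (0.316%) was at least 2-fold apart, 35 of them higher on array 1.

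**Figure D1:**
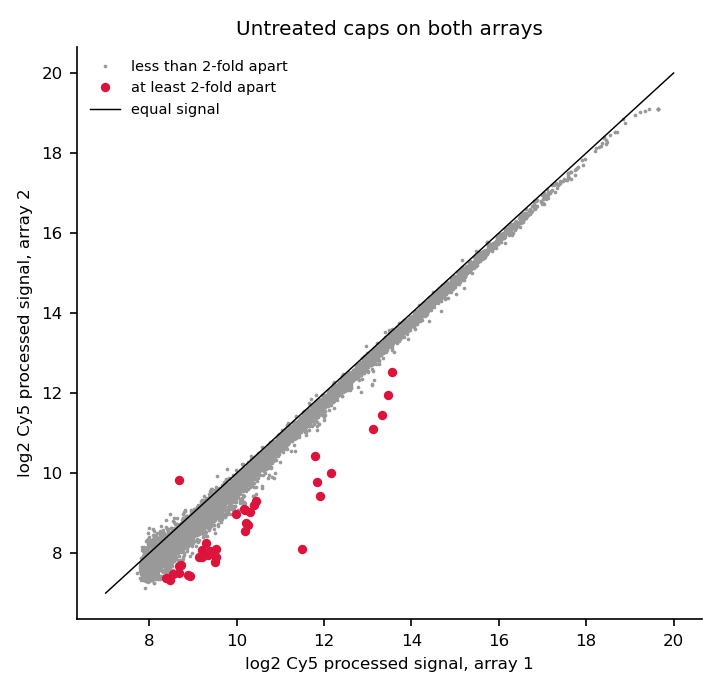
Log2 processed Cy5 signal of the 11400 detected probes on array 1 (horizontal) and array 2 (vertical). Each point is a probe, the line marks equal signal, and the 36 red points were at least 2-fold apart, with 35 of them on the side of array 1.

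A probe's signal depends on its sequence and on how its target is labelled as well as on the amount of RNA. The rank is therefore an order of probe signals, and a brighter probe does not show a more abundant message. How far signals of 1 gene can part was seen where it had more than 1 detected probe. In 13 pairs of probes with the same gene name the median difference was 3.02-fold. The pairs furthest apart were those of MGC64236, at 218013 and 180001 on arrays 1 and 2 for one probe against 7167 and 5871 for the other, followed by BC097925 (24.6-fold) and by BC098963 and LOC446286 (12.7-fold each). In 92 pairs matched by RefSeq symbol, which include the L and S copies that *X. laevis* carries of many genes, the median difference was 2.1-fold and 28 pairs were at least 4-fold apart. The largest gap, chosen for mention after its value was seen, was between *cenpn.L* (299489 and 272900) and *cenpn.S* (686 and 620). Differences of this size between probes of different genes are not read as differences between genes below.

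The brightest probes were those of general cell machinery, of chromosome replication and of a few ectodermal proteins. The probes for *eef1a-o1*, the oocyte form of the elongation factor that carries aminoacyl-tRNA to the ribosome, for the splicing factor *srsf2*, for a ubiquitin C-like message (MGC53081) and for the cold-inducible RNA-binding protein *xcirp2* were saturated on both arrays, at 818361 to 819540 on array 1 and 565176 to 566563 on array 2. Their order among themselves has no meaning. In all, 5 detected probes were saturated on array 1 and 7 on array 2. Next came an epidermal cytokeratin (*krt70.S*) at 815528 and 565158, saturated on array 2 only. The arginine methyltransferase *prmt1* stood at 711703 and 565944, also saturated on array 2.

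Below the saturated spots, the high mobility group protein *hmgb3* gave signals of 571290 on array 1 and 507789 on array 2. A related sequence of hyaluronan synthase (HAS-rs), a relative of the enzyme that makes the matrix sugar hyaluronan, gave 468062 and 476509. DG42 (MGC52910), a hyaluronan synthase first described in *Xenopus* gastrulae, gave 356116 and 331010. Both of these matrix probes were thus within the brightest 25 annotated names, 1.02-fold and 1.08-fold apart between the arrays. The others of the 25 were a second splicing factor of the arginine-rich family (MGC78772), ubiquitin C (*ubc*), 2 probes for the heat shock cognate protein 70 (*hspa8* and MGC53952), its relative of the endoplasmic reticulum *hspa5*, the phosphatase subunit *ppp1ca*, *hnrnpa0.L*, phospholipase C beta (*plcb3*), histone H3.3 (*h3-3b*), the kinetochore protein *cenpn.L*, the translation factor relative *nat1*, beta-catenin (*ctnnb1*), the polyamine enzyme *odc1*, the replication licensing factors *mcm7* and *cdc6*, and cyclin B2 (*ccnb2.S*). Their signals ran between 206185 and 612082 on array 1 and between 187689 and 533101 on array 2.

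The machinery lists had a large share of detected probes. Of 45 probes for RNA splicing proteins 44 were detected and 38 were in the bright class, the highest share in the bright class among the 28 lists examined. Translation factors had 30 of 32 probes detected, chaperones 32 of 35 and mitochondrial ribosomal proteins 18 of 20, with 20, 22 and 12 in the bright class. Energy metabolism of mitochondria had 44 of 58, glycolysis 12 of 16 and the proteasome 18 of 25. The background for these counts is 53.3% detected and 13.3% in the bright class over all uniform probes. Most probes of these lists, other than energy metabolism (15 of 58), come with no sequencing read named in their description. Over all 7851 uniform probes of that kind the shares were 78.2% and 30.3%. Among such probes, 37 of 38 were detected for splicing, 28 of 29 for translation factors and 30 of 30 for chaperones. The counts were 16 of 17 for mitochondrial ribosomal proteins, 15 of 15 for energy metabolism, 11 of 12 for glycolysis and 15 of 15 for the proteasome. Each of these shares was above 78.2%. Proteasome probes named by a 5' sequencing read were detected in 3 of 8 cases (37.5%), beside 51.3% of all probes named by a 5' read.

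Probes for proteins of the cell cycle and of DNA replication were widely detected. Of 68 such probes 63 were detected (92.6%). Among the 64 with no read named 60 were detected (93.8%), beside 78.2% of all probes of that kind. Of the 68 probes 40 were in the bright class. Besides *mcm7*, *cdc6* and *ccnb2.S* this held for the mitotic kinase *plk1* (142314 and 127579 on arrays 1 and 2) and the replication clamp *pcna* (138211 and 118247). Not detected were *cdc14a*, *cdk19*, *wee2*, *ccnb1.2.S* and a cyclin D2 probe (Y10075), whose signals lay between 91.6 and 146 on array 1 and between 77.2 and 125 on array 2. Histones and HMG proteins had 21 of 24 probes detected, with 12 in the bright class. Among these was the maternal linker histone B4, which replaces somatic histone H1 in early embryos, at 90675 and 84853. A probe for another linker histone, H1(0)-1, was in the middle class at 1906 and 1622. Actins and tubulins had 15 of 18 detected (83.3%). With no read named, 12 of 14 actin and tubulin probes (85.7%) and 14 of 14 histone and HMG probes were detected, beside 78.2% of all such probes.

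**Figure D2:**
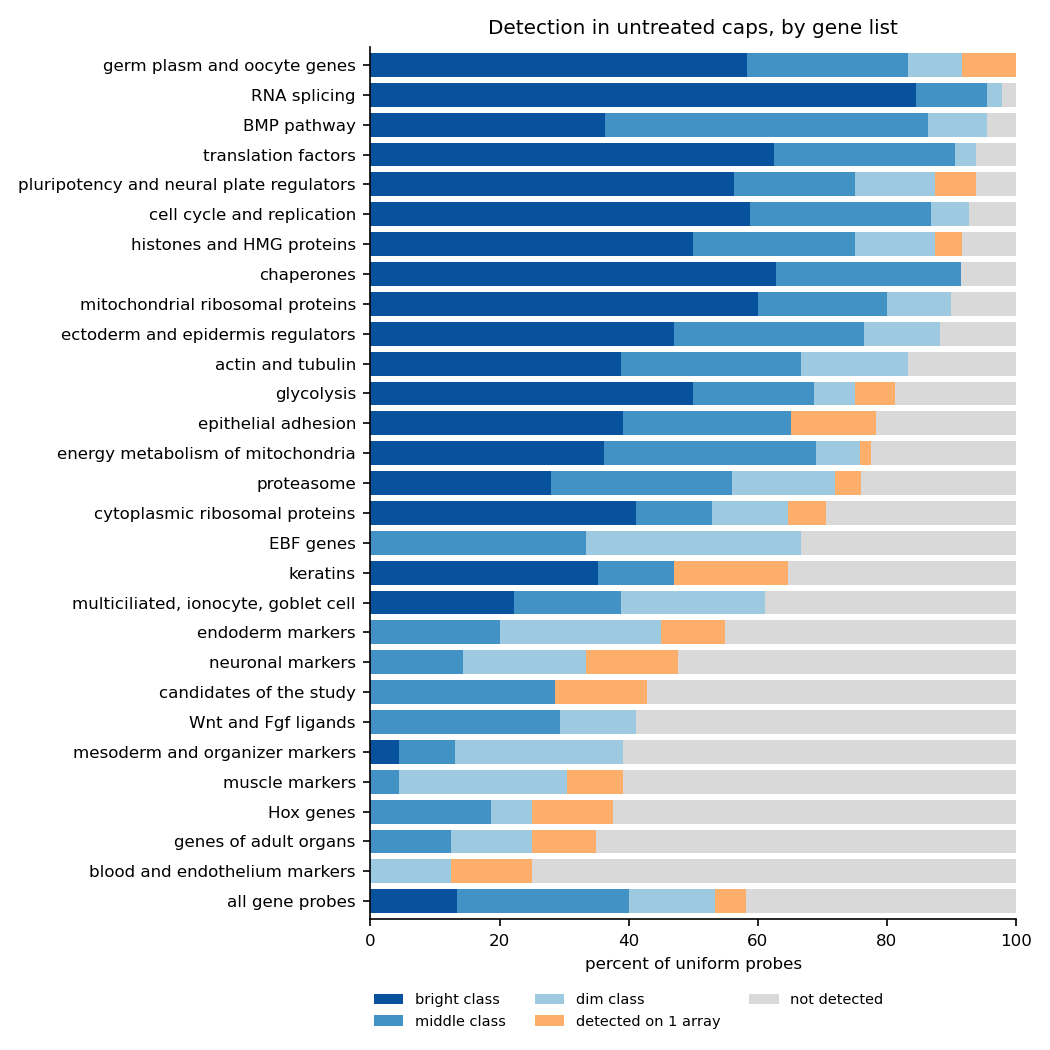
Share of the uniform probes of each list that fell in the bright, middle or dim class of detected probes, were detected on 1 array only, or were not detected, in percent, with all gene probes as the lowest bar. Splicing, maternal, BMP and cell cycle lists have few undetected probes (1 of 45 for splicing), while blood, adult organ, Hox and muscle lists are mostly undetected (6 of 8 for blood).

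Keratins, the intermediate filaments of epithelia, differed widely from probe to probe. Of 17 probes 8 were detected, and 6 of these were in the bright class. Their share, 47.1%, was below the 53.3% of all uniform probes. Keratin probes with no read named numbered 15, of which 8 were detected (53.3%) and 6 were bright (40.0%). Over all probes of that kind the shares were 78.2% and 30.3%. After *krt70.S* came *krt8.1* at 152084 on array 1 and 149892 on array 2, and *krt18.1* at 86553 and 75914. The protein pair they encode is typical of simple epithelia. The gastrula-stage epidermal cytokeratin MGC68905 gave 74606 and 65726, a second probe named *krt70* gave 31169 and 25332, and *krt12.5.S* gave 19471 and 17625. Every one of these 6 was far above the upper end of the dim class on both arrays. The adult keratin XAK-C (1166 and 543) was in the middle class and was 2.15-fold apart between the arrays, and *krt78.8.L* (639 and 525) was there too. A further 3 probes, which included a second *krt18.1* probe (LOC398482, 230 and 139), were well above background on 1 array only. The larval keratin XLK (101 and 75.6) and the adult keratin XAK-B (114 and 99.3) were not detected, nor were *krt61.L*, *krt12.2*, *krt57.L* and an unnamed type I probe. The bright probe ck1 (63235 and 54308), which the array describes as casein kinase 1 but whose accession matches *krt8.1*, was not counted with the keratins.

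Adhesion proteins of epithelia were detected in 15 of 23 probes (65.2%), with 9 in the bright class. Among the 19 of them with no read named 12 were detected (63.2%), below the 78.2% of all such probes. Beta-catenin, which links cadherins to actin and also carries Wnt signals, led at 246332 on array 1 and 231949 on array 2. E-cadherin (*cdh1*) gave 73227 and 65813, and the maternal C-cadherin (*cdh3*) gave 18111 and 14491. Both cadherins of the cleavage-stage and ectodermal epithelium were therefore well within the bright class. The p120 catenin *ctnnd1.L* (56229 and 53162), plakoglobin (*jup.L*, 35721 and 31356), alpha-catenin (*ctnna1*, 11842 and 10083), *pkp3*, *pkp4.S* and 1 EST of the list were there too. A second plakoglobin probe (Jup) was lower, at 3105 and 2682. Not detected were 4 claudin probes and a probe for a relative of tight junction protein 3, although another claudin probe (cla) was detected at 1314 and 1112.

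The regulators of ectoderm and epidermis had 15 of 17 probes detected (88.2%) and 8 in the bright class. Among the 15 with no read named 13 were detected (86.7%) and 8 were bright (53.3%), beside 78.2% and 30.3% of all such probes. Neptune (*klf17.L*), a Krüppel-like factor, gave the highest signal of the list at 129205 on array 1 and 108200 on array 2. *foxi1*, which specifies ionocytes of the epidermis, gave 84292 and 69647. The BMP-induced repressors of the Ventx2 group followed, with 65996 and 57544 for Xbr-1b, 44319 and 39144 for VENT-2 and 12885 and 11521 for Xom. All 3 probes of this group were thus in the bright class. *dlx5* gave 44044 and 43340, *dlx3* gave 20564 and 18243, and *gata2* gave 14890 and 14555. These are BMP-dependent factors of the non-neural ectoderm, and their values on the 2 arrays were 1.02-fold, 1.13-fold and 1.02-fold apart. Of the Foxi family the list holds *foxi1* alone, and the probes XFD2 (120080 and 117078), XFD2' and FoxI2 (14199 and 11536), which are outside it, were in the bright class too. In the middle class were *tfap2a* (2067 and 1987), *grhl1* (1575 and 1349), *ventx1.1* (1507 and 1310) and *gata3* (1104 and 1008).

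The 2 probes of *tp63*, the regulator of stratified epithelium, were at the other end. The probe LOC399036 was in the dim class at 332 and 165, a 2.01-fold difference between arrays, and the probe tp73l-A was not detected at 97.6 and 71.3. *msx2* was not detected either, at 143 and 124. The LOC399036 probe is named by a 3' sequencing read, a kind of probe detected in 25.4% of cases and bright in 0.863%. The tp73l-A probe has no read named.

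Factors that keep cells uncommitted or mark the neural plate were as widely detected, in 14 of 16 probes, with 9 in the bright class. Among the 14 with no read named 12 were detected (85.7%) and 9 were bright (64.3%), beside 78.2% and 30.3% of all such probes. *sox11*, a factor of neural progenitors, had 1 probe at 163076 and 156650 and another at 54101 and 45687 on arrays 1 and 2. *sox3* gave 110465 and 95905. The Pou5f3 factors, relatives of the mammalian pluripotency factor Oct4, gave 68588 and 64742 for *pou5f3.1* and 54482 and 47000 for *pou5f3.3.L*. *zic2* (22181 and 19199), *sall4* (9932 and 8297), *myc* (8499 and 7861) and *sox2* (9723 and 6812) completed the bright class. Probes for epidermal and for neural or pluripotency regulators were therefore both found at its level in the same caps, which as bulk tissue do not show whether the same cells held both. Among the probes below it were *foxd4l1.1* in the middle class, a SoxD probe in the dim class at 377 and 346, and the only probe not detected, *foxd4l1.2*.

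Probes of the BMP pathway were widely detected, in 21 of 22 cases (95.5%) with 8 in the bright class (36.4%). All 22 had no read named, and over all such probes the shares were 78.2% and 30.3%. Among ligands, a *bmp7* probe (MGC68434) gave 119946 on array 1 and 115885 on array 2, and a second, *bmp7.2*, gave 1389 and 1169. The 2 *bmp2* probes were in the middle class, at 1345 and 1067 and at 588 and 476. The type I receptor *bmpr1a.L* gave 44617 and 39213, while the *bmpr1a.S* probe was 15.3-fold lower at 2916 and 2558. The type II receptor *bmpr2* gave 677 and 572. Signal transducers were represented by 2 *smad1* probes, at 41707 and 36807 and at 36576 and 28986. Ligand, receptor and transducer were thus each covered by at least 1 probe of the bright class. Targets and feedback inhibitors were there as well, with the decoy receptor *bambi* at 98580 and 93133, the secreted tolloid inhibitor sizzled (*szl*) at 19051 and 17459, an *id3*-like probe (MGC52572) at 13094 and 9735 and the inhibitory *smad7* at 8474 and 7784. A second sizzled probe, *szl.L*, was lower at 4549 and 4236. The proteases that release BMPs from chordin, *bmp1* and the tolloids, were in the middle and dim classes. *id2* alone was not detected, at 96.5 and 94.2.

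**Figure D3:**
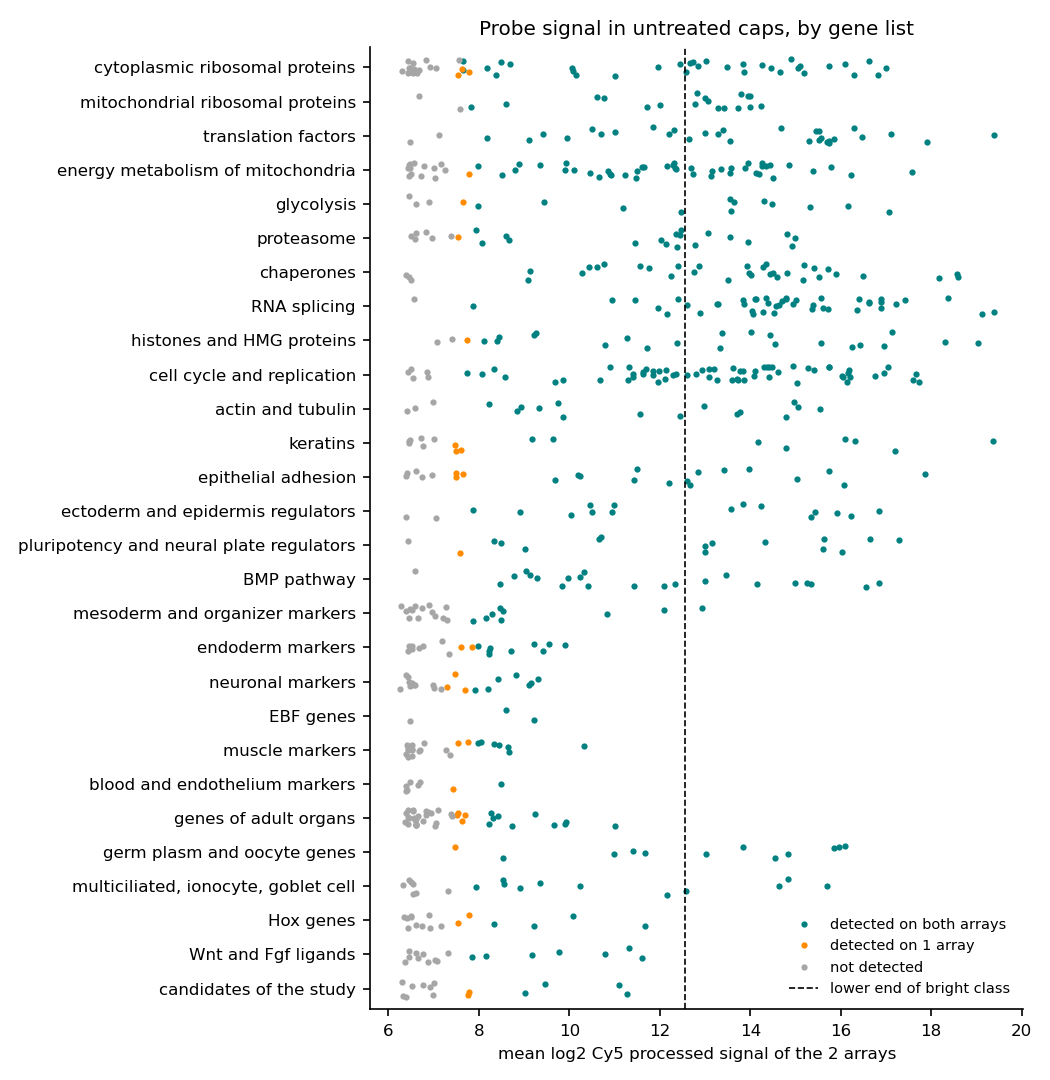
Mean log2 processed Cy5 signal of the 2 arrays for every uniform probe of each list (1 point per probe, coloured by detection). Probes of ectoderm, pluripotency and BMP lists reach beyond the lower end of the bright class (dashed line, 12.6), while 1 probe of the mesoderm list and 0 probes of the endoderm, neuronal, muscle and blood lists do.

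Probes for messages known from the oocyte and its germ plasm were bright. Of 12 probes 11 were detected, 7 were in the bright class and the remaining 1, *pgat*, was well above background on 1 array. Among the 11 with no read named 10 were detected (90.9%) and 7 were bright (63.6%), beside 78.2% and 30.3% of all such probes. The RNA-binding protein FRGY2 (*ybx2*), which packages stored messages, gave 71760 on array 1 and 67746 on array 2, and the related p54 probe gave 67060 and 60612. The oocyte kinase *mos* gave 63529 and 54437 and *zar1*, needed at the egg-to-embryo transition in mammals, gave 31674 and 27178. Egg envelope genes had probes in the bright class too, with a ZPC glycoprotein at 25502 and 22301 and *zpax.L* at 8859 and 7901. The germ-cell helicase *ddx4*, which the array names VLG1, gave 15515 and 13641. Probes for messages kept in the vegetal germ plasm of the egg were lower in the ranking, with *velo1.L* and *ddx25* in the middle class and *nanos1* in the dim class at 371 and 372.

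Genes of the specialised cells of larval epidermis were detected in 11 of 18 probes (61.1%), with 4 in the bright class. Among the 14 with no read named 9 were detected (64.3%) and 4 were bright (28.6%), beside 78.2% and 30.3% of all such probes. The master regulator of motile cilia *foxj1* had 1 probe at 30816 on array 1 and 27476 on array 2 and another in the middle class at 5328 and 3941. The other 3 were subunits of the V-ATPase proton pump, *atp6v1b2*, *atp6v1c1.L* and *atp6v1a*, which most cells use and which ionocytes use most. Probes for products of differentiated cells lay low in the ranking of signals, with the goblet cell lectin XEEL (*itln1*) at 388 and 359 and *tekt4.S* at 538 and 439. A tektin 2 relative (MGC52862), a carbonic anhydrase II relative (MGC52685), both probes matched to the anion exchanger *slc26a4.3*, *atp6v1f* and *atp6v1g3.L* were not detected.

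Other germ layers and tissues were examined to see what else a cap could hold. Of 23 mesoderm and organizer probes 9 were detected, 1 of them in the bright class, and 14 were not detected. The probe in the bright class was Xombi (*vegt*), a maternal T-box factor, at 8562 and 7228 on arrays 1 and 2, and a second *vegt* probe, Brat, gave 4789 and 4008. Brachyury (*tbxt*, 191 and 126), goosecoid (*gsc.S*, 90.0 and 66.9), noggin (97.2 and 87.6), *lhx1*, *frzb*, *fst* and 5 of the nodal probes were not detected. The *chrd.1.S* probe for chordin, a BMP antagonist of the organizer, was in the middle class at 1950 and 1697. Of 20 endoderm probes 9 were detected, 0 of them in the bright class. The highest were *cer1* (1057 and 873), *hnf4a* (852 and 655) and *gata5* (748 and 618), whereas *sox17b.1*, *gata4*, *gata6*, *hhex* and *foxa4* were not detected. These mesoderm and endoderm shares, 39.1% and 45.0%, were below the 53.3% of all uniform probes.

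Markers of differentiated tissues had low shares of detected probes under the flag used here. Neuronal markers had 7 of 21 probes detected, muscle markers 7 of 23, blood and endothelium 1 of 8, and genes of adult organs 10 of 40, with 0 in the bright class in any of these lists. Not detected were *ncam1* (2 probes), *nefm.L* and *nefm.S*, which encode a neurofilament, *neurod6*, *elavl4*, the myosin probes, desmin, *tal1.S*, *gata1*, both globin probes matched to *hbg2*, rhodopsin, vitellogenin B1 and serum albumin. The probes that were detected lay low in the ranking. Of the neuronal list *elavl3* gave 784 on array 1 and 513 on array 2, and *myt1.S* gave 591 and 547. Another detected probe, which the array names myt1 and which was matched to the same symbol, gave 1563 and 1259. The highest of the muscle list was a myogenin probe (myogU2-A) at 1309 and 1246, while the other myogenin probe was not detected at 103 and 82.6. The muscle list does not hold a probe similar to myogenic differentiation 1 (MGC52596), which was in the middle class at 2893 and 273. The highest of the adult organ list was a gamma-crystallin gene (M99582) at 2287 and 1876. Hox genes, which pattern the trunk later, had 4 of 16 probes detected, of which *hoxb7* (3589 and 2980) and *hoxd1* (1221 and 962) were the highest. Wnt and Fgf ligands had 7 of 17, led by the maternal *wnt11b* at 3621 and 2682, *fgf2* at 2821 and 2345 and *fgf8* at 1898 and 1622. The shares of all these lists were below the 53.3% of all uniform probes. How low these shares were depends on the flag. With a probe counted as detected where the software called it significantly above background, which 86.7% of all uniform probes were, 18 of 21 neuronal, 21 of 23 muscle, 4 of 8 blood, 32 of 40 adult organ, 17 of 23 mesoderm and 18 of 20 endoderm probes were detected. Hox genes then had 12 of 16 probes detected and Wnt and Fgf ligands 14 of 17. The blood, adult organ, mesoderm and Hox shares and that of Wnt and Fgf ligands were still below 86.7%. The neuronal share was just under it, and the muscle and endoderm shares were above it.

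A probe that was not detected does not show that its message was absent. Probes for genes that every cell uses were among them, such as those for the ribosomal proteins *rpl8* (93.1 on array 1 and 80.0 on array 2), *rps15* (97.9 and 79.1) and *rpl3* (101 and 78.0) and for the proteasome subunit *psmb1* (96.2 and 84.3). Of 51 probes for cytoplasmic ribosomal proteins 33 were detected, 21 in the bright class, and 15 were not detected. The same family thus ran between *rps19* at 105727 and 96825 and *rpl8* not above background. The description on the array names the sequencing read behind a probe where it came from an expressed sequence tag (EST), and this moved with detection. Of probes named by a 5' read 51.3% were detected (3612 of 7038), of probes named by a 3' read 25.4% (1648 of 6488), and of probes with no read named, of which 662 were described by an EST alone, 78.2% (6140 of 7851). Their shares in the bright class were 5.95%, 0.863% and 30.3%. Among ribosomal proteins 21 of 28 probes of 5' reads and 8 of 18 probes of 3' reads were detected. The mesoderm and endoderm lists hold 0 probes of 3' reads, whereas the muscle list holds 4 of 23, the blood list 3 of 8 and the adult organ list 10 of 40. Among their probes with no read named, 9 of 22 were detected for mesoderm (40.9%), 8 of 19 for endoderm (42.1%), 7 of 20 for neuronal markers, 7 of 18 for muscle (38.9%), 1 of 4 for blood and 6 of 26 for adult organs (23.1%), all below 78.2%. With no read named, 3 of 12 Hox probes and 7 of 16 Wnt and Fgf probes (43.8%) were detected, also below 78.2%. The part of the read type in any list's share was not tested.

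The cDNA library that a 5' read came from also moved with detection. The highest shares were those of the libraries coded Ov1 (36 of 46 probes, 78.3%), of gastrula (76 of 104, 73.1%), of oocyte (91 of 126, 72.2%), of anterior neuroectoderm (417 of 593, 70.3%) and of the one coded Emb1 (83 of 118, 70.3%). Egg (54 of 80, 67.5%) and animal cap itself (60 of 90, 66.7%) were close to these. Libraries of normalized neurula (71 of 151, 47.0%) and tailbud (110 of 249, 44.2%) were lower, and the lowest were those coded Brn1 (146 of 444, 32.9%), Lu1 (39 of 123, 31.7%) and He1 (14 of 48, 29.2%). The 6 libraries named for oocyte, egg, animal cap, gastrula or anterior neuroectoderm all stood at 60.4% or above, while those coded Te1, Te2 and Te2N stood at 57.8% (495 of 857). Probes of 3' reads stood between 14.9% and 36.9% in the 21 libraries counted for them, with the highest share in anterior neuroectoderm. Libraries differ in size, in normalization and in how many ESTs were chosen for the array, and these shares are descriptions.

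**Figure D4:**
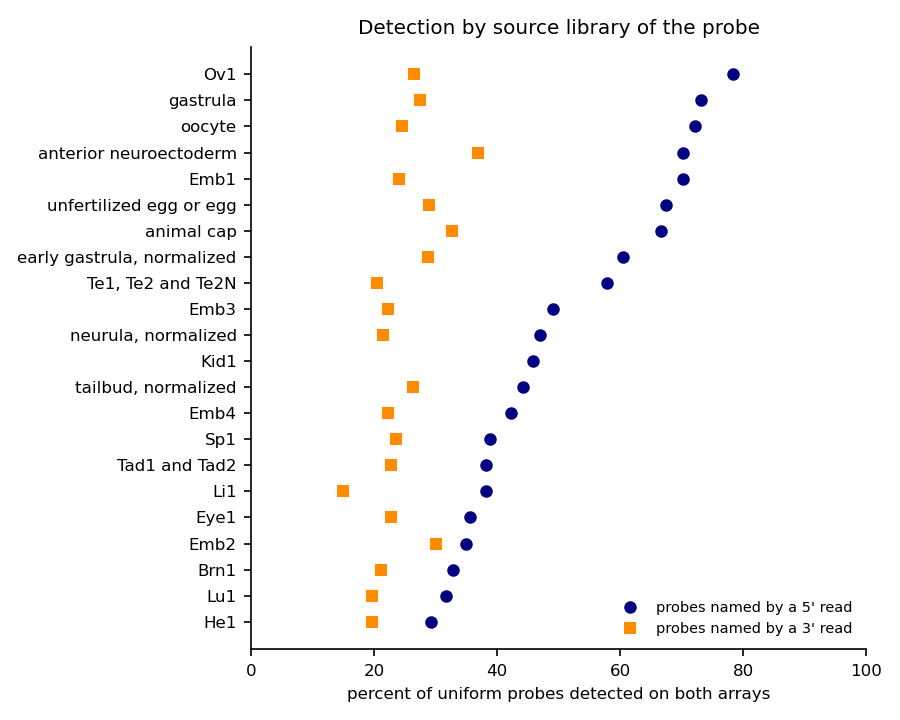
Percent of uniform probes detected in untreated caps on both arrays, by the cDNA library named in the probe's description, for 5' reads (circles) and 3' reads (squares). Circles run between 29.2% (He1) and 78.3% (Ov1), and squares lie between 14.9% and 36.9%.

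The limit of detection lay in the same range of signal as the lowest detected probes. The lowest annotated detected probes were a Pax6 probe (MGC52531) at 224 on array 1 and 160 on array 2, *nkx2-4* at 235 and 160 and *serpina1.L* at 210 and 181. Among the highest annotated probes outside were an EST similar to the acetyltransferase MOZ (BE575401) at 266 and 278 and an EST (BG234127) at 240 and 263. Both were well above background on array 2 only. In all, 915 of the 1030 probes detected on 1 array were detected on array 2.

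The annotated probes that differed most between the 2 untreated channels were looked at together with their Cy3 partners. A probe similar to myogenic differentiation 1 (MGC52596) gave 2893 on array 1 and 273 on array 2, 10.6-fold apart. In Cy3 the same probe gave 157246 with active EBF3 on array 1 and 399 with hGR on array 2. *pura* gave 4547 and 1021, *clu* 724 and 218, *efs.L* 741 and 240 and *ucn3.S* 487 and 171 in Cy5. For *clu* and *efs.L* the Cy3 signal of array 1 was above its Cy5 signal, at 3422 and 1652, whereas for *pura* (4061) and *ucn3.S* (473) it was not. Over all 36 probes at least 2-fold apart, 5 had a Cy3 signal at least 2-fold above Cy5 on array 1, beside 261 of 11268 detected probes. The 25 detected probes with Cy3 at least 8-fold above Cy5 on array 1 were brighter in Cy5 of array 1 by a median of 0.374 on the log2 scale, against 0.239 over all detected probes. The part of the Cy3 signal in the Cy5 values was not tested.

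The EBF genes and the study's candidate targets in untreated caps were read from the same channels. The probe for the injected gene (Xebf-3) was not detected in untreated caps, at 90.0 on array 1 and 87.0 on array 2, although the caps had received its message, so that it is no check of the injection. The 2 *ebf2* probes were detected, at 706 and 501 for ebf2-B and 331 and 451 for ebf2-A. In active EBF3, 1 of the 2 was at least 2-fold higher than in untreated caps and 0 were lower. In DEX-treated hGR caps, which lacked the hGR-Xebf3 message, 1 was at least 2-fold lower and 0 were higher. There, 1 of the 2 was well above background in Cy3. Whether the Cy5 signal of these probes came from the embryo's own gene was not tested. Of the 14 candidates 4 were detected, all in the middle class, 2 were well above background on array 1 only and 8 were not detected. All 14 had no read named, and the share detected, 28.6%, was below the 78.2% of all such probes. The study picked these 14 partly for their strong rise over untreated caps when EBF3 was activated, in caps with Noggin. That choice favours a low untreated signal, so the share is not a result about these genes. The 4 were BC084931 (2700 and 2267), MGC69003 (2396 and 1973), *inhbb*, the activin beta B subunit (894 and 553), and MGC68948 (658 and 413). The 2 were MGC82572 (510 and 91.8) and *hoxd10* (MGC68611, 383 and 127), whose Cy3 signals with active EBF3 on array 1 were 20474 and 12158. Of the 25 detected probes with Cy3 at least 8-fold above Cy5 on array 1, 2 were at least 2-fold higher in Cy5 there than on array 2. These were MGC52596 and *myod1.L* (645 and 246 in Cy5). Over all 11400 detected probes 35 were higher by that much. The 25 had to be detected on array 2 too, which MGC82572 and *hoxd10* were not. The part of the Cy3 signal in the Cy5 values of these candidates was not tested. Not detected were *nefm.S*, *nhlh1.L*, *emx1*, *en2*, *wnt3a*, *nr2f2*, MGC84237 and BC043838, with signals between 86.0 and 205 on array 1 and between 71.8 and 115 on array 2. With probes counted where significantly above background, 13 of the 14 candidates were detected, beside 86.7% of all uniform probes.

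The detected probes were last followed into the DEX-treated channels. As the Cy5 signal that chose the probes is the denominator of these ratios, the counts are descriptions. With active EBF3, 261 of 11268 probes (2.32%) were at least 2-fold higher than in untreated caps and 395 (3.51%) were lower by that much. With DEX-treated hGR, whose caps also lacked the hGR-Xebf3 message, 84 of 11357 (0.74%) were higher and 280 (2.47%) lower. In Cy5, 7 detected probes were saturated on at least 1 array, so their ratios are not exact. Of the brightest 100 probes, 0 were higher and 10 were lower with active EBF3, among 91 that were uniform in Cy3, and 0 of 99 changed by 2-fold with hGR. The lower ones included both hyaluronan synthase probes, with 47606 in active EBF3 and 468062 in untreated caps for HAS-rs and 62043 in active EBF3 and 356116 in untreated caps for DG42. On array 2 HAS-rs gave 684619 in DEX-treated hGR caps and 476509 in untreated caps, and DG42 gave 587168 and 331010. In bulk tissue, fewer cells of a type and less RNA per cell cannot be told apart.

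The lists of ectoderm were set beside those shares. Of the 15 detected regulators of ectoderm and epidermis 11 were lower by 2-fold or more with active EBF3 and 1 was higher, against 1 lower and 2 higher of 14 with hGR. In active EBF3, 13 of the 15 were well above background in Cy3. *foxi1* gave 1728 in active EBF3 and 84292 in untreated caps on array 1. On array 2 it gave 21102 in DEX-treated hGR caps and 69647 in untreated caps, so that it was lower than its untreated partner on both arrays. Xbr-1b gave 1220 in active EBF3 and 65996 in untreated caps, and 72848 in DEX-treated hGR caps and 57544 in untreated caps. *gata3* was higher in both treated samples, with 6681 in active EBF3 and 1104 in untreated caps, and 4757 in DEX-treated hGR caps and 1008 in untreated caps. Of 8 keratin probes 3 were lower with active EBF3 and 0 with hGR. Of 21 BMP pathway probes 7 were lower with active EBF3, while with hGR 0 were lower and 2 were higher. In the pluripotency and neural plate list 1 of 13 was higher with active EBF3, *sox2* (64448 in active EBF3 and 9723 in untreated caps), and 1 was lower. With hGR 1 of 14 was higher, *myc* (16027 in DEX-treated hGR caps and 7861 in untreated caps). In the lists of oocyte genes, of cytoplasmic and mitochondrial ribosomal proteins and of mitochondrial energy metabolism 0 probes passed 2-fold in either direction on either array. At 2.32% higher and 3.51% lower over all detected probes with active EBF3, few would be counted in lists of this size. With active EBF3, 2 of 41 splicing probes were lower and 0 higher. Chaperones had 2 higher and 1 lower of 31, translation factors 1 and 1 of 28, and the cell cycle list 2 and 2 of 61. Each ratio is from 1 array. Untreated caps were in Cy5 on both arrays, and no dye swap was made, so for a probe that differed the same way on both, such as *foxi1* or *gata3*, a dye bias and a response cannot be told apart. Over the ectoderm regulators as a list the median log2 ratio was -2.07 with active EBF3 and 0.385 with hGR, and the cause of this difference was not tested.

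**Figure D5:**
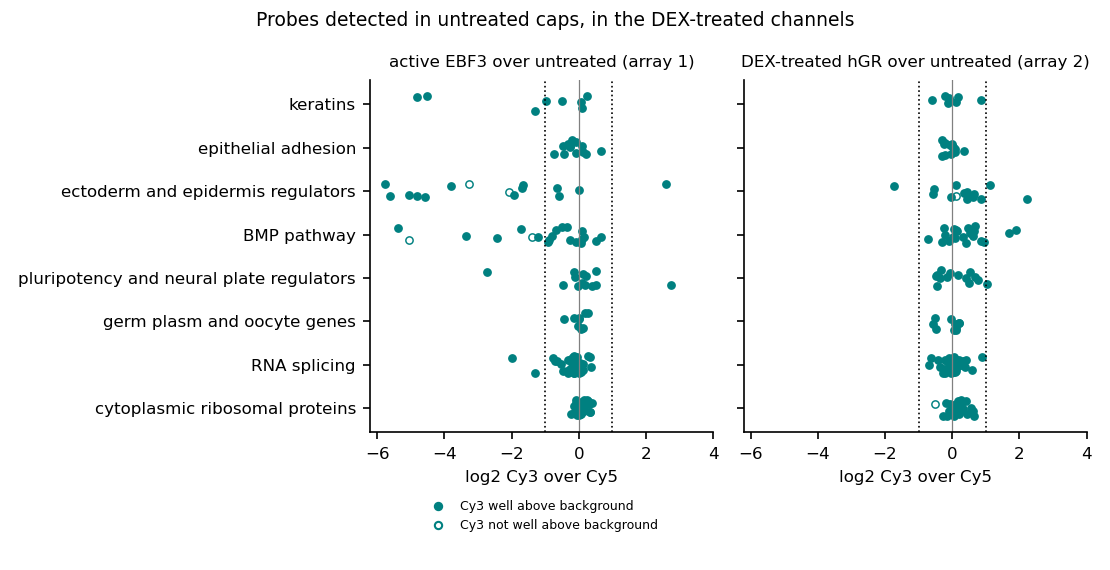
Log2 ratio of DEX-treated Cy3 over untreated Cy5 signal for the detected probes of 8 lists, with active EBF3 on array 1 (left) and DEX-treated hGR on array 2 (right). Each point is a probe, filled where Cy3 was well above background, and dotted lines mark 2-fold. Of the ectoderm regulators 11 of 15 lie left of the lower dotted line with active EBF3 and 1 of 14 with hGR.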

How the data were processed

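Total RNA of animal caps was labelled with Cy3 or Cy5 and hybridized to 2 two-colour Agilent *Xenopus* arrays. Groups were taken from the labels. Per the file headers, spots were read with Feature Extraction 8.1.1.1, which is not the version given in the study's methods. The deposited processed intensity of each channel had been background-subtracted with spatial detrending and LOWESS dye-normalized by the authors' software, which writes surrogates for spots not above background. The deposited log10 ratio of the 2 channels was used as an alternative for the folds.

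Control and non-uniform Cy5 spots were left out and no normalization was added. Both Cy5 channels hold 1 biological replicate, so no test was run. The steps were tested on simulated data. Gene names are those of the array, with 3758 probes matched to a RefSeq symbol of Xenopus_laevis_v10.1. Genome positions and sequences were not used here.

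The probes, lists and rules were chosen with earlier results of these data known. Genes named were the 25 brightest annotated names, in lists of up to 25 probes those in the bright class and defining genes not detected, in longer lists the 3 brightest and up to 3 not detected, the 3 probes on either side of the limit, the 5 that differed most between arrays, the 3 names whose probes differed most, and the EBF and candidate probes. Some genes that these rules name are not reported here. Further names give the range of a list and were chosen after values were seen. After values were seen, descriptions that name only a clone were no longer counted as annotated, pairs by symbol were limited to names that fix the gene, and the split by read and library was added. Alternatives were other signals (background-subtracted, or normexp with an offset of 50 and quantile normalization in limma 3.58.1), detection rules, single arrays, gene names, folds and numbers of brightest probes.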

Additional observations from a re-analysis of the deposited data

Results flagged for a closer look

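A signal appeared in spots that the comparisons leave out. Of the 118 gene probes flagged non-uniform in Cy5, 116 were well above background on both arrays, and 112 had a mean signal above the lower end of the bright class. They include probes of the lists, such as a splicing factor (*sfrs3*, 252836 on array 1 and 224798 on array 2), aldolase C (40532 and 36252) and a beta-tubulin (MGC53205, 46254 and 39275).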

How the results depend on the processing

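No paired analysis was possible because the result comes from no test. With a probe counted as detected where it was significantly above background (the flag rIsPosAndSignif), 18537 probes were detected in place of 11400, and the counts of 11 lists moved by more than 1.5 times. They were then 15 for keratins, 23 for adhesion, 17 for mesoderm, 18 for endoderm, 18 for neuronal markers, 21 for muscle, 4 for blood, 32 for adult organs, 12 for Hox genes, 14 for Wnt and Fgf ligands and 13 for candidates. How low the detection of other tissues was thus depends on the flag. The blood count, 1 in the report, was also 2 with detection on at least 1 array and 2 with non-uniform spots kept, and ran between 1 and 3 with either array left out. The number of probes at least 2-fold apart between the Cy5 channels, 36 in the report, was 18 with background-subtracted signal, 7 with normexp and quantile normalization (where the SD was 0.097), 141 with the looser flag and 83 with detection on at least 1 array. Of the alternatives chosen after seeing the data, it was 22 with the arrays centred on their medians and 23 with probes of 3' reads left out. At 1.5-fold, 555 probes were higher and 889 lower with active EBF3 and 474 and 794 with hGR, and of the brightest 100 these numbers were 1 and 20 and 4 and 4. Of the brightest 200, 18 were lower at 2-fold with active EBF3 and 3 with hGR. The deposited log10 ratio kept all 8 of these counts within 1.5 times. The cause of these moves was not tested. With the looser flag the bright class also held 14 proteasome, 2 mesoderm, 1 Hox and 2 Wnt and Fgf probes. Other list counts stayed within 1.5 times under every alternative run. With 1 replicate, the arrays limit the precision of every value.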
